A study of Mus musculus with 26 samples.

Results

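Hprt and 9 other genes of purine nucleotide synthesis and salvage were followed across normal blood progenitors and MLL-AF9 lines of the mouse. The 10 genes were taken by name (Hprt, Aprt, Ppat, Gart, Pfas, Paics, Atic, Impdh1, Impdh2 and Gmps), and 9 of them were measured, among 19937 genes in all. A gene was read from a probe set that carries its symbol alone, the brightest on average if several do, and each measured member had a single such probe set. No probe set carried Impdh2 alone, so Impdh2 was not analysed here. Hprt was selected on a measured value, its large difference in signal with doxycycline (dox), so every Hprt difference that involves cultured cells is given below as a description, with no test. The other members were named with earlier results of these data known.

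Purine nucleotides are built from phosphoribosyl pyrophosphate along a chain of enzymes that ends in inosine monophosphate, from which adenine and guanine nucleotides are made. Cells can also recover free bases: Hprt joins hypoxanthine and guanine to phosphoribosyl pyrophosphate, and Aprt does the same for adenine. Dividing blood cells draw on both routes to make DNA and RNA, and thiopurine drugs used in leukaemia are activated by Hprt.

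The study asked how the cell of origin shapes leukaemia driven by MLL-AF9, a fusion of human KMT2A (MLL) and MLLT3 (AF9). Long-term haematopoietic stem cells (LT-HSC, n = 4) and granulocyte macrophage progenitors (GMP, n = 4) were sorted by flow cytometry from wild-type bone marrow. Lines immortalized in vitro from LT-HSC were harvested from liquid culture with dox (n = 2 at 48 h, n = 3 at 72 h) or without it (n = 3 at each time), and lines from GMP with dox (n = 4) or without (n = 3) at 48 h. All samples were of the C57BL/6 strain. In such lines dox is known to switch MLL-AF9 on; the sources used here do not give the construct, its promoter, its site in the genome or whether the hours count from adding or from removing dox. Replicates of the cultured groups are lines named B6-1, B6-2, B6-3 and F6-6, so the 48 h and 72 h arrays of the LT-HSC-derived lines repeat the same lines, and whether a line is a single clone is not given. LT-HSC-derived cells with dox at 48 h lack B6-1, as do GMP-derived cells without dox. Values are log2 signals of 1-colour Affymetrix arrays as deposited by the authors, and ± marks an SD for group means and the standard error (SE) of the fit for differences.

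Array medians lay between 5.81 and 5.91 log2, and replicates correlated with r between 0.979 and 0.991 across probe sets. The sorted cells were checked against their markers. The summed signal of 9 measured LT-HSC markers was 12.72 to 12.84 in sorted LT-HSC and 9.81 to 10.03 in sorted GMP, and that of 10 GMP markers was 10.92 to 11.14 and 13.82 to 13.91. Lines of both origins carried GMP markers at 13.06 to 13.68, and their LT-HSC markers lay at 8.78 to 10.97. In lines from LT-HSC, the defining markers of the labelled origin thus lay below the level of sorted LT-HSC. Of 5 B cell markers 4, and of 7 T and NK cell markers 6, lay below the array median in every group.

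The RefSeq table of promoters (GRCm38.p6) matched 9 of the 10 genes, all but Pfas. The 250 bases before the start of Hprt, which differed most with dox, and of Gart and Atic, enzymes of the chain to inosine monophosphate that rose with dox in GMP-derived lines, are shown. They are chrX:52987828-52988077 on the plus strand, chr16:91646973-91647222 on the minus strand and chr1:71556906-71557155 on the plus strand, each printed 5′ to 3′ along its gene, with capitals marking an E-box (CACGTG, a site that MYC and related factors can bind) or a CCAAT box.
Hprt: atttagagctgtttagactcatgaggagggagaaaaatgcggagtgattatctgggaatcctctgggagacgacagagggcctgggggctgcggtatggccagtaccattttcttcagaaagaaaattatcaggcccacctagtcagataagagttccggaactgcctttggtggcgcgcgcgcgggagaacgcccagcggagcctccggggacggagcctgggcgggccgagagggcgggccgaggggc
Gart: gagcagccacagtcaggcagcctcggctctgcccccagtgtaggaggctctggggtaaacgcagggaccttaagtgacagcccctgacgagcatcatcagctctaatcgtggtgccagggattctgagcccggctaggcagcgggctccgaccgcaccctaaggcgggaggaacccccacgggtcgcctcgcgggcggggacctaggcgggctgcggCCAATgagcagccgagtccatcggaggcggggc
Atic: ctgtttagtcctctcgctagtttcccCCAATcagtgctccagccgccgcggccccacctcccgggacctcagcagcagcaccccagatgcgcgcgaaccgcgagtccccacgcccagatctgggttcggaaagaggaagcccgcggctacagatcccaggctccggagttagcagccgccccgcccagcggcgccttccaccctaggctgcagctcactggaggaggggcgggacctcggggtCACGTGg
Windows of 300 bases, from 250 before to 50 after each start, were searched on both strands. The 9 genes had 10 windows, as Impdh1 had 2. CACGTG, which reads the same on both strands, was found in 3 of the 10 windows (Paics, Atic and Impdh2), against 7.15% of 32851 windows of all genes in the table. Impdh2 is not among the measured members. CCAAT was found in 4 of the 10 windows (Gart, Paics, Atic and Impdh2), against 37.4% of all windows. TGATGNAA, the core of an amino acid response element, was found in none of the members' windows and in 3.97% of all windows. Neither CACGTG nor CCAAT was in the windows of Hprt, Aprt, Ppat, Impdh1 or Gmps. Of these Ppat, not shown, rose more with dox in GMP-derived lines than Gart or Atic (0.55 log2, against 0.48 and 0.29). Ppat and Paics are neighbours on chromosome 5, are read from opposite strands and overlap at their starts (76913249-76951578 and 76951302-76967509). The Paics window that holds both motifs (76951052-76951351) lies within Ppat.

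Hprt was at its lowest in every line without dox and at its highest in every line with dox, with both kinds of sorted cells in between. In sorted LT-HSC its signal was 9.25, 9.25, 9.84 and 9.29 log2, and in sorted GMP 9.66, 9.62, 9.97 and 9.88. LT-HSC-derived lines B6-2, B6-3 and B6-1 without dox gave 7.95, 7.71 and 7.51 at 48 h and 7.03, 7.61 and 6.82 at 72 h. With dox, B6-2 and B6-3 gave 10.62 and 10.81 at 48 h, and B6-2, B6-3 and B6-1 gave 10.80, 10.61 and 10.64 at 72 h. All cultured arrays thus fell into a low set without dox and a high set with dox, and no array of a sorted sample lay in either. GMP-derived lines B6-2, B6-3 and F6-6 without dox gave 7.31, 7.56 and 7.92, and with dox B6-2, B6-3, F6-6 and B6-1 gave 10.69, 10.69, 10.77 and 10.67. With dox the lines of both origins lay within a narrow band, and without dox they were more spread.

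**Figure D1:**
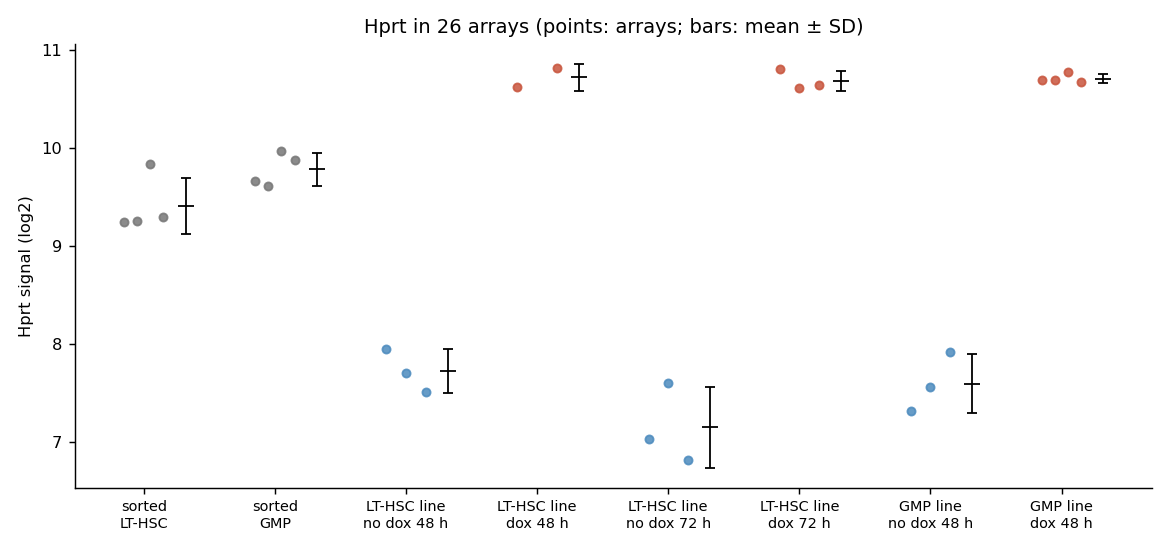
Hprt signal (log2, vertical axis) on each array, by group; points are arrays and bars the group mean ± SD. Lines without dox sit between 6.82 and 7.95, sorted cells between 9.25 and 9.97 and lines with dox between 10.61 and 10.81.

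From low to high, the group means of Hprt were 7.15 ± 0.41 (LT-HSC-derived, no dox, 72 h), 7.60 ± 0.30 (GMP-derived, no dox), 7.72 ± 0.22 (LT-HSC-derived, no dox, 48 h), 9.41 ± 0.29 (sorted LT-HSC), 9.78 ± 0.17 (sorted GMP), 10.68 ± 0.10 (LT-HSC-derived, dox, 72 h), 10.71 ± 0.04 (GMP-derived, dox) and 10.72 ± 0.13 (LT-HSC-derived, dox, 48 h). Neighbours in this order overlapped within the no-dox groups, within the sorted groups and within the dox groups, and did not overlap between these 3 levels. The whole range was 3.57 log2, or 11.9-fold. With dox against without, the difference in Hprt signal was 3.00 ± 0.20 in LT-HSC-derived lines at 48 h (7.98-fold), 3.53 ± 0.18 at 72 h (11.6-fold) and 3.11 ± 0.16 in GMP-derived lines (8.63-fold). Among 19937 genes it ranked 1 by increase in each of the 3 comparisons; the next was Mecom at 48 h and 72 h in LT-HSC-derived lines (2.14 and 2.64 log2) and Epha7 in GMP-derived lines (2.74 log2). Within lines it was higher with dox in 8 of 8 pairs of the same line and time, by 2.67 to 3.82 log2.

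Set beside the sorted cells, Hprt lay on opposite sides with and without dox. LT-HSC-derived lines at 48 h differed from sorted LT-HSC by -1.69 log2 without dox and by 1.31 with it. GMP-derived lines differed from sorted GMP by -2.19 log2 without dox and by 0.92 with it. These differences share the sorted arrays within each origin. Between 48 h and 72 h the mean without dox differed by -0.57 log2, with overlapping arrays, and the mean with dox by -0.04. Within lines, each was lower at 72 h without dox (B6-2 7.95 and 7.03, B6-3 7.71 and 7.61, B6-1 7.51 and 6.82). With dox, B6-2 was higher at 72 h (10.62 and 10.80) and B6-3 lower (10.81 and 10.61). GMP-derived lines differed from LT-HSC-derived lines at 48 h by -0.01 log2 with dox and by -0.13 without, and the dox differences of both origins were 0.11 log2 apart.

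Normal GMP and LT-HSC were compared next, a comparison that the choice of Hprt did not use. In sorted GMP, 4 of the 9 measured members rose over sorted LT-HSC (limma, p adjusted by Benjamini-Hochberg across every gene and under 0.05) and none fell, while 32.1% of all genes were called and 16.8% of all genes were called higher in GMP. Arrays did not overlap for 4 of the 9 (30.7% of all genes). The members' median difference was 0.25 log2, against -0.01 over all genes. The largest was in Gart, a single protein that carries out several steps of the chain: its signal was 7.81, 8.11, 8.02 and 8.07 log2 in sorted LT-HSC and 8.49, 8.63, 8.80 and 8.47 in sorted GMP. All GMP arrays lay above all LT-HSC arrays, and Gart rose by 0.59 ± 0.09 (1.51-fold, adjusted p = 6.00e-06). In bulk samples, fewer cells of a type and less RNA per cell cannot be told apart.

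Aprt, the adenine salvage enzyme, was 6.90, 7.30, 7.01 and 7.05 log2 in sorted LT-HSC and 7.52, 7.46, 7.63 and 7.47 in sorted GMP, again without overlap, and rose by 0.45 ± 0.09 (adjusted p = 0.000169). Gmps, which makes guanosine monophosphate from xanthosine monophosphate, rose by 0.38 ± 0.07 (adjusted p = 0.000229), from 9.73 to 10.02 in LT-HSC to 10.18 to 10.30 in GMP. Impdh1, which feeds Gmps by oxidizing inosine monophosphate, rose by 0.25 ± 0.09 (adjusted p = 0.0297); its signals, with means of 5.79 and 6.04, lay near the array medians, and the call ended without sorted LT-HSC replicate 2 (adjusted p = 0.114), sorted GMP replicate 2 (0.0604) or sorted GMP replicate 3 (0.141). Hprt itself differed by 0.37 ± 0.15 (95% interval 0.06 to 0.69, adjusted p = 0.065), with overlapping arrays; sorted LT-HSC replicate 3 was the LT-HSC array that reached into the GMP range, and without it the difference was 0.52 (adjusted p = 0.00842). Hprt also passed with median centring (adjusted p = 0.0477) and with the filter on dim probe sets (0.0464). It passed too with the replicate number as a block (0.0241), though that number does not pair the sorted arrays. With each array left out in turn, the Hprt difference ranged from 0.31 to 0.52 and its limma adjusted p from 0.00842 to 0.184. Atic differed by 0.20 ± 0.08 (adjusted p = 0.0644), Pfas by 0.17 ± 0.09, Ppat by 0.02 ± 0.09 and Paics by -0.03 ± 0.06, none of which passed. Atic passed with median centring (adjusted p = 0.0245), with the dim filter (0.0424), with the same block (0.0455) and without sorted LT-HSC replicate 2 (0.28, adjusted p = 0.00441). With each array left out in turn, the Atic difference ranged from 0.15 to 0.28 and its limma adjusted p from 0.00441 to 0.21. Proliferation genes moved with this comparison, as 18 of 19 measured rose in GMP, where 16.8% of all genes were called higher. Their summed signal was 13.42 to 13.67 in LT-HSC and 14.07 to 14.12 in GMP. Their part in the members' differences was not tested.

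**Figure D2:**
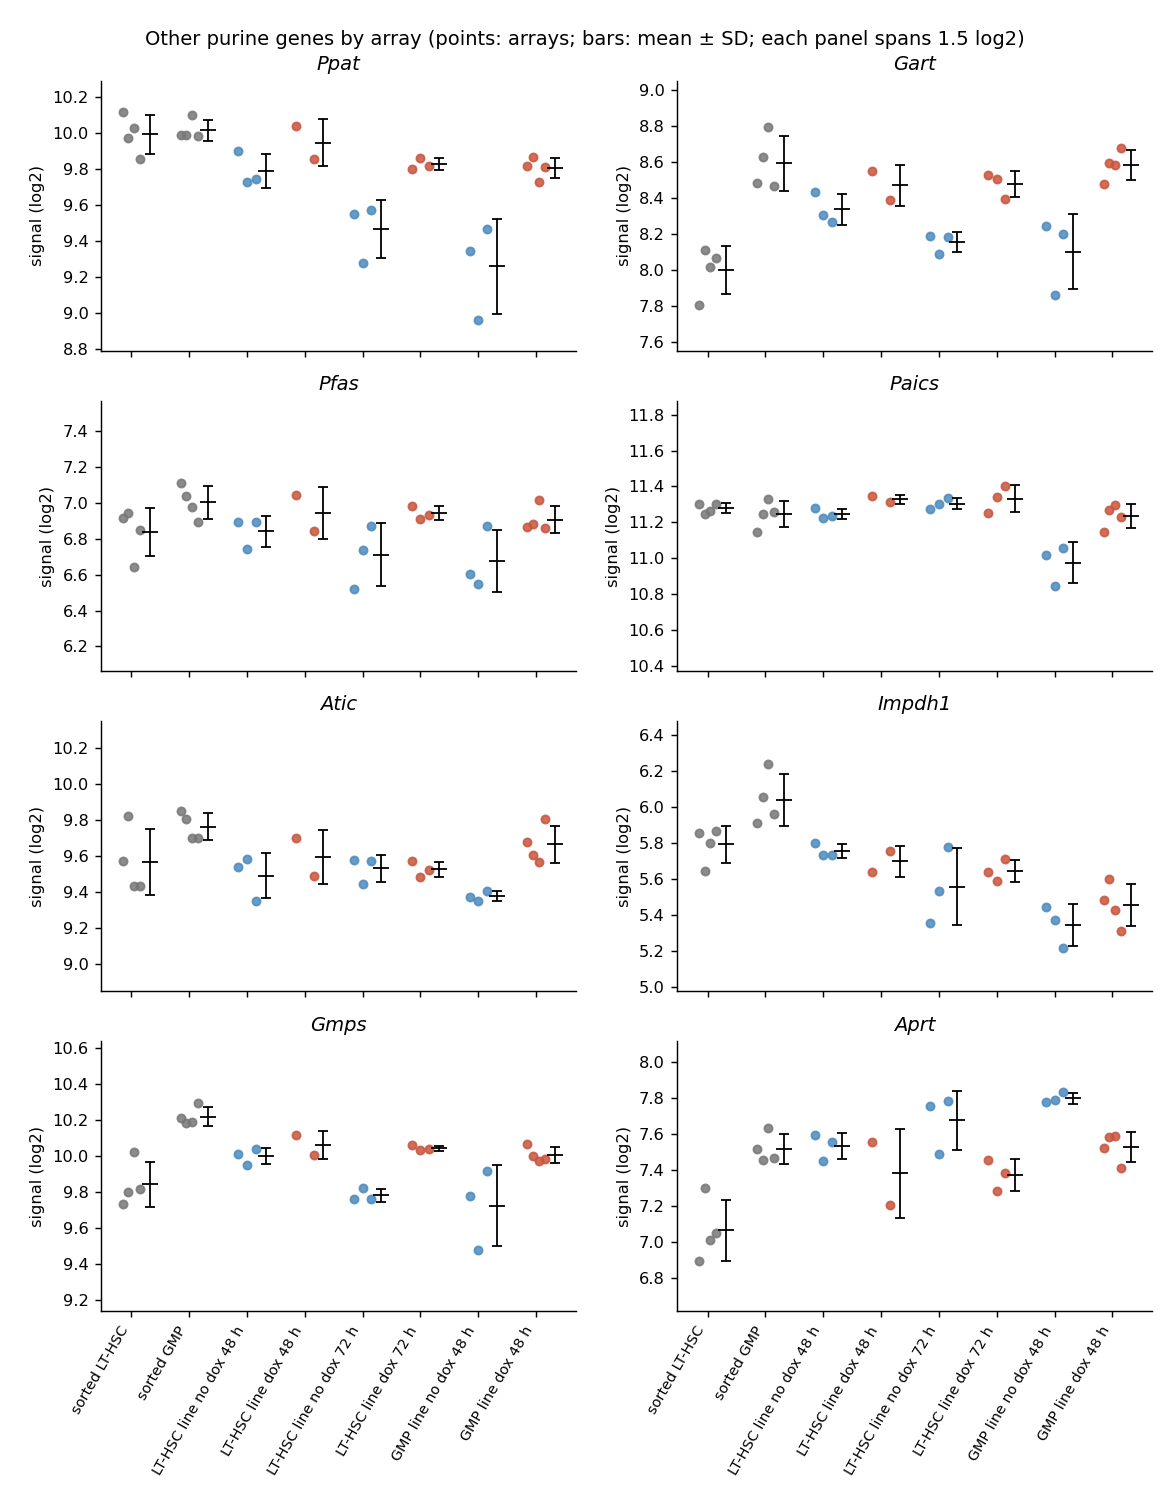
Signal (log2) of the 8 other measured members on each array, by group, in panels that each span 1.5 log2; points are arrays (grey sorted, blue no dox, red dox) and bars the group mean ± SD. GMP-derived lines without dox have the lowest mean of 6 members (Ppat, Pfas, Paics, Atic, Impdh1 and Gmps), and the highest mean of Aprt.

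The dox differences of the other members were far smaller than that of Hprt. Of the 8 other members, 5 rose with dox in GMP-derived lines (Ppat, Gart, Paics, Atic and Gmps) and none fell, against 10.9% of all genes called and 5.75% called higher. In LT-HSC-derived lines 1 of 8 rose at 72 h (7.15% of all genes called, 3.43% higher) and 0 of 8 passed at 48 h (limma; 0.441% called), where 0 of 8 had an unadjusted p under 0.05. The count in GMP-derived lines was 2 without the no-dox array of B6-3 and 3 without the dox array of B6-2. The median difference of the 8 was 0.27, 0.16 and 0.09 log2, against 0.01, -0.03 and 0.00 over all genes. Arrays with and without dox did not overlap for 6 of the 8 in GMP-derived lines (19.9% of all genes), for 5 of 8 in LT-HSC-derived lines at 72 h (22.6%) and for 1 of 8 at 48 h (25.1%).

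Ppat, the amidotransferase of the committed first step, had the largest difference of the 8 with dox in all 3 comparisons. In GMP-derived lines B6-2, B6-3 and F6-6 without dox it was 9.34, 8.96 and 9.46 log2, and with dox B6-2, B6-3, F6-6 and B6-1 gave 9.82, 9.86, 9.72 and 9.81. All arrays with dox lay above those without, and B6-3 without dox was the lowest. Ppat rose by 0.55 ± 0.10 (1.46-fold, adjusted p = 0.00037), and by 0.40 without the no-dox array of B6-3 (adjusted p = 0.00687). In LT-HSC-derived lines at 72 h it was 9.55, 9.28 and 9.57 without dox and 9.80, 9.86 and 9.81 with it in B6-2, B6-3 and B6-1, and rose by 0.36 ± 0.10 (1.28-fold, adjusted p = 0.0324). That call ended under quantile normalization (adjusted p = 0.0544), in the fit of these groups alone (0.107), and without the dox array of B6-2, B6-3 or B6-1 (0.077, 0.0911 and 0.0815) or the no-dox array of B6-3 (0.148). At 48 h the lines gave 9.90, 9.73 and 9.74 without dox and 10.04 and 9.85 with it, which overlap, and the difference was 0.16 ± 0.11 (95% interval -0.08 to 0.39).

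Gart came next in GMP-derived lines. It was 8.24, 7.86 and 8.20 log2 without dox in B6-2, B6-3 and F6-6, and 8.48, 8.60, 8.58 and 8.68 with it, so the groups did not overlap and B6-3 without dox was again lowest. Gart rose by 0.48 ± 0.09 (1.4-fold, adjusted p = 0.0011), and by 0.36 without that array (adjusted p = 0.0228). In LT-HSC-derived lines at 72 h it was 8.19, 8.09 and 8.19 without dox and 8.53, 8.51 and 8.40 with it; the arrays did not overlap, and the difference of 0.32 ± 0.10 missed the threshold (adjusted p = 0.0536). It passed there with the line as a block (adjusted p = 0.0367) and with the dim filter (0.0342). At 48 h Gart differed by 0.13 ± 0.11.

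The later enzymes of the chain gave smaller differences. Paics, which joins the middle steps, was 11.02, 10.85 and 11.06 log2 without dox in GMP-derived lines and 11.15, 11.27, 11.30 and 11.23 with it, and rose by 0.26 ± 0.06 (adjusted p = 0.006). Atic, which closes the ring to inosine monophosphate, was 9.38, 9.35 and 9.41 without dox and 9.68, 9.61, 9.57 and 9.81 with it, and rose by 0.29 ± 0.09 (adjusted p = 0.0328). Neither overlapped between the groups, and both calls ended without the no-dox array of B6-3 (adjusted p = 0.0876 for Paics and 0.128 for Atic). The Atic call also ended with the line as a block (0.0817), without the dox array of B6-2 (0.0681) or B6-1 (0.111) and without the no-dox array of B6-2 (0.0871) or F6-6 (0.0574), and that of Paics in the fit of these groups alone (0.0716). Pfas, the amidotransferase between Gart's steps, differed by 0.23 ± 0.09 (adjusted p = 0.123) with overlapping arrays, and passed without the no-dox array of F6-6 (0.33, adjusted p = 0.0292). In LT-HSC-derived lines, Paics and Atic differed by at most 0.10 log2 at either time, and Pfas by 0.23 ± 0.10 at 72 h (adjusted p = 0.177) and 0.10 ± 0.11 at 48 h.

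Impdh1 and Gmps act on the branch to guanine nucleotides. Gmps was 9.78, 9.48 and 9.92 log2 without dox in GMP-derived lines and between 9.97 and 10.07 in the 4 arrays with it, without overlap, and rose by 0.28 ± 0.08 (adjusted p = 0.0214). The call ended without the no-dox array of B6-3 (0.16, adjusted p = 0.279), without the dox array of B6-2 (adjusted p = 0.0621) and in the fit of these groups alone (0.132). At 72 h in LT-HSC-derived lines Gmps was 9.76, 9.82 and 9.76 without dox and 10.06, 10.03 and 10.04 with it, a difference of 0.26 ± 0.09 (adjusted p = 0.0666) that passed with the dim filter (0.041). Impdh1 differed by 0.11 ± 0.09 in GMP-derived lines, 0.09 ± 0.10 at 72 h and -0.06 ± 0.11 at 48 h in LT-HSC-derived lines, none of which passed.

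Aprt, the other salvage enzyme, was on the opposite side from Hprt. GMP-derived lines gave 7.78, 7.79 and 7.84 log2 without dox and 7.52, 7.58, 7.59 and 7.41 with it; all arrays with dox were lower, and the difference of -0.27 ± 0.09 missed the threshold (adjusted p = 0.0648). In LT-HSC-derived lines at 72 h Aprt was 7.76, 7.49 and 7.79 without dox and 7.46, 7.28 and 7.38 with it, a difference of -0.30 ± 0.10 (adjusted p = 0.0689). It passed at 72 h with the line as a block (adjusted p = 0.0363), under quantile normalization (0.0489), with the dim filter (0.0444) and without the no-dox array of B6-3 (0.0254), and in GMP-derived lines with the dim filter (0.0385) and in the fit of these groups alone (0.0431). At 48 h in LT-HSC-derived lines it differed by -0.15 ± 0.11.

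Within lines, the direction of each member was read without a test. Over the 8 pairs of the same line and time, Ppat (0.13 to 0.90 log2), Gart (0.08 to 0.73), Pfas (0.06 to 0.46) and Gmps (0.05 to 0.52) were higher with dox in 8 pairs. Aprt was lower in 8 (-0.40 to -0.04). Paics was higher in 7, Impdh1 in 6 and Atic in 5. The pairs are not independent, since B6-2 and B6-3 from LT-HSC appear at both times. How many of all genes keep a single direction in all 8 pairs was not counted. The line B6-3 from GMP gave the largest difference of Ppat, Gart, Gmps and Paics.

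**Figure D3:**
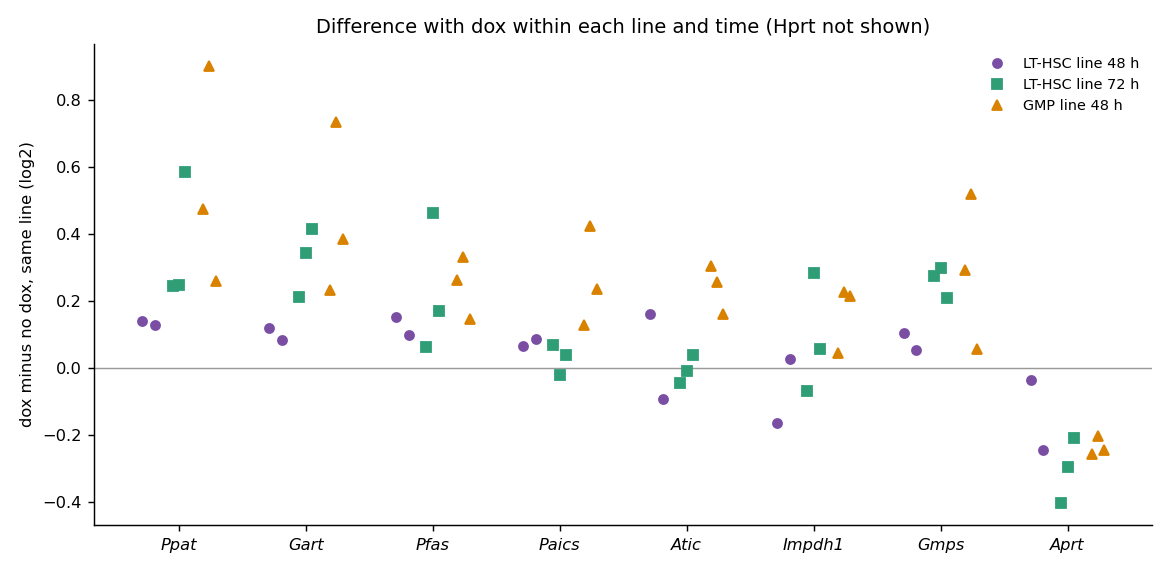
Difference in signal (log2) with dox minus without in the same line and at the same time, for the 8 other measured members; each point is a line, with marker shape giving origin and time, and Hprt (2.67 to 3.82) is not shown. Ppat, Gart, Pfas and Gmps lie above 0 in all 8 pairs and Aprt lies below 0 in all 8.

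Markers of more mature myeloid cells moved with dox in the same arrays. The summed signal of 10 late neutrophil markers was 14.19 to 14.27 log2 in GMP-derived lines without dox and 12.35 to 12.71 with it, and 13.30 to 14.20 and 12.78 to 13.30 in LT-HSC-derived lines at 72 h. That of 9 measured monocyte and macrophage markers was 12.41 to 13.19 and 10.96 to 12.20 in GMP-derived lines. Of 19 proliferation genes, 1 rose and 1 fell with dox in GMP-derived lines, where 10.9% of all genes were called and 5.75% were called higher. The part of these markers in the members' differences was not tested.

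Lines of both origins were compared next. With dox at 48 h, 0 of 8 members differed between GMP-derived and LT-HSC-derived lines (limma; 2.11% of all genes called), and 1 had an unadjusted p under 0.05. Without dox, 3 of 8 were lower in GMP-derived lines (6.8% of all genes called, 3.52% lower): Ppat fell by 0.53 ± 0.10 (adjusted p = 0.00161), Impdh1 fell by 0.41 ± 0.10 (adjusted p = 0.0119) and Paics fell by 0.27 ± 0.07 (adjusted p = 0.012). Only the Impdh1 call remained in the fit of these groups alone (adjusted p = 0.0755 for Ppat and 0.125 for Paics), Paics was lost without the no-dox GMP-derived array of B6-3 (0.103), and Impdh1 was lost without that of F6-6 (0.0657) and with the line name as a block (0.0673). Gmps missed the threshold with -0.28 ± 0.09 (adjusted p = 0.0513) and passed under quantile normalization (0.0369), with the dim filter (0.0309) and without the no-dox GMP-derived array of F6-6 (0.0101). Markers of other cell types differed in these no-dox arrays too. The summed signal of late neutrophil markers was 13.32 to 13.89 log2 in LT-HSC-derived and 14.19 to 14.27 in GMP-derived lines, and that of 7 mast cell and basophil markers 11.60 to 12.82 and 8.67 to 10.92. Their part in the members' differences was not tested. The difference of the dox effects between origins was tested directly, and 0 of 8 members passed (limma; 0.231% of all genes called, 2 of 8 members at an unadjusted p under 0.05). It was 0.39 ± 0.15 for Ppat (95% interval 0.08 to 0.70, adjusted p = 0.396) and 0.35 ± 0.15 for Gart (adjusted p = 0.48). Between 72 h and 48 h in LT-HSC-derived lines 0 of 8 members passed in limma's test without dox (0.181% called; 2 members at an unadjusted p under 0.05) or with dox (0% called; 0 members). The lowest of these differences without dox was in Ppat, -0.32 ± 0.10 (adjusted p = 0.2).

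Against the sorted cells of their origin, GMP-derived lines without dox were lower in most of the pathway. Without dox, 7 of 8 members fell below sorted GMP and 1, Aprt, rose (23.5% of all genes called, 12.7% lower and 10.8% higher), and the arrays of all 8 did not overlap (33.1% of all genes). Ppat fell by 0.76 ± 0.10 (1.69-fold, adjusted p = 1.95e-06), Impdh1 by 0.70 ± 0.09 (adjusted p = 4.69e-06), Gmps by 0.50 ± 0.08 (adjusted p = 4.66e-05), Gart by 0.49 ± 0.09 and Atic by 0.39 ± 0.09. Pfas fell by 0.33 ± 0.09 (adjusted p = 0.0103; 0.054 without the no-dox array of B6-2 and 0.0816 without that of B6-3), and Paics fell by 0.27 ± 0.06 (adjusted p = 0.00204). Aprt rose by 0.28 ± 0.09 (adjusted p = 0.0299); this call ended under quantile normalization (0.0881), without sorted GMP replicate 1, 2 or 4 (0.0551, 0.0731 and 0.07) and without the no-dox array of B6-2, B6-3 or F6-6 (0.0605, 0.0707 and 0.0922). With dox, 2 of 8 members differed from sorted GMP, both lower (19.8% called, 9.76% lower). Impdh1 was 5.48, 5.60, 5.43 and 5.31 log2 against 5.91, 6.05, 6.24 and 5.96 in sorted GMP and fell by 0.59 ± 0.09 (1.5-fold, adjusted p = 2.14e-05). Gmps fell by 0.21 ± 0.07 (adjusted p = 0.0434), a call that ended with median centring (0.0603) and when any of 7 of the 8 arrays compared was left out (adjusted p from 0.0604 to 0.124), all but the dox array of B6-2. Ppat differed by -0.21 ± 0.09 (adjusted p = 0.106), and passed under quantile normalization (0.0335) and in the fit of these groups alone (0.03). Both comparisons share the sorted GMP arrays. Myeloid markers differed in the same arrays: the summed signal of late neutrophil markers was 10.23 to 11.85 log2 in sorted GMP and 14.19 to 14.27 in GMP-derived lines without dox, and that of monocyte and macrophage markers 11.95 to 12.39 and 12.41 to 13.19. Their part in the members' differences was not tested.

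In LT-HSC-derived lines at 48 h, Aprt and Gart rose over sorted LT-HSC with and without dox. Without dox, Aprt rose by 0.47 ± 0.09 (1.38-fold, adjusted p = 0.000269) and Gart by 0.34 ± 0.09 (adjusted p = 0.00651), 2 of 8 members where 35.2% of all genes were called and 17.1% were higher. With dox, Gart rose by 0.47 ± 0.11 (adjusted p = 0.00131) and Aprt by 0.32 ± 0.11 (adjusted p = 0.0252), 2 of 8 where 29.2% were called and 14.6% were higher. The other 6 members differed by -0.20 to 0.22 log2 and did not pass in either. Among them Gmps passed without sorted LT-HSC replicate 3, by 0.22 without dox (adjusted p = 0.0357) and 0.28 with it (adjusted p = 0.0198), and with dox also with the dim filter (0.0498). Under quantile normalization the no-dox difference of Gart missed the threshold (0.21, adjusted p = 0.0792), and Ppat (-0.36, adjusted p = 0.00369) and Atic (-0.25, adjusted p = 0.031) passed. The dox call of Aprt ended under quantile normalization (adjusted p = 0.103), in the fit of these groups alone (0.136), and without sorted LT-HSC replicate 1 (0.0776), sorted LT-HSC replicate 3 (0.0506) or the dox array of B6-2 (0.535). Proliferation genes also rose in these lines over sorted LT-HSC, 14 of 19 with dox (14.6% of all genes higher) and 14 of 19 without (17.1% higher). Their part in the members' differences was not tested.

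**Figure D4:**
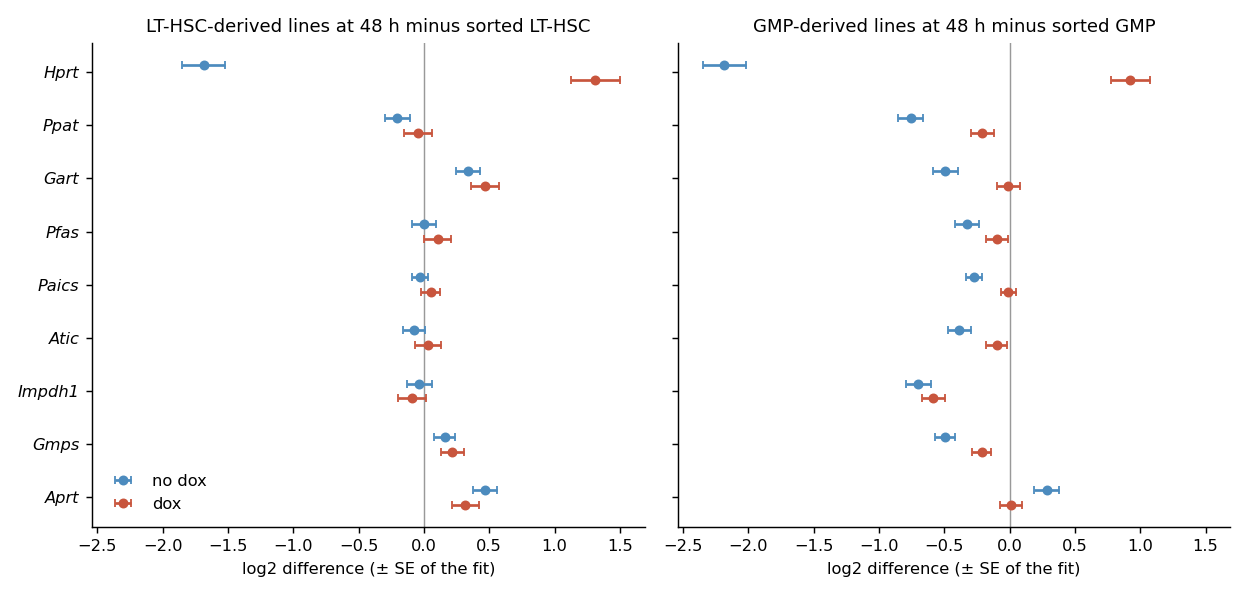
Difference in signal (log2, ± SE of the fit) of the 9 measured members between lines at 48 h and the sorted cells of the same origin, without dox (blue) and with dox (red). Hprt is lower than in sorted cells without dox (-1.69 and -2.19) and higher with it (1.31 and 0.92); 7 of the other 8 members lie left of 0 in GMP-derived lines without dox.

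Other genes of nucleotide metabolism were read from lists named with these data known. Of 23 measured further purine genes (27 named), 5 rose and 4 fell with dox in GMP-derived lines (10.9% of all genes called), 2 rose and 2 fell in LT-HSC-derived lines at 72 h (7.15% called) and 0 passed at 48 h (limma; 0.441% called, 2 of the list at an unadjusted p under 0.05); the medians were 0.11, 0.12 and 0.03 log2. Those that rose at 72 h were Prps1, a phosphoribosyl pyrophosphate synthetase, by 0.37 ± 0.10 (adjusted p = 0.0314), and Prpsap2, by 0.36 ± 0.09 (adjusted p = 0.0169). Prpsap2 is a protein associated with the synthetases. In GMP-derived lines the largest increase of the list was in Prps2, another synthetase, which rose by 0.62 ± 0.11 (adjusted p = 0.000355). The named genes that fell, chosen by the size of the difference, break purines down or interconvert them. Xdh, which makes uric acid, fell by 1.16 ± 0.22 at 72 h (adjusted p = 0.00187) and by 0.94 ± 0.21 in GMP-derived lines (adjusted p = 0.00319). Gda, guanine deaminase, fell by 0.61 ± 0.14 at 72 h (adjusted p = 0.0065) and by 0.61 ± 0.13 in GMP-derived lines (adjusted p = 0.00206). Ampd3, an adenosine monophosphate deaminase, fell by 1.17 ± 0.15 in GMP-derived lines (adjusted p = 1.31e-05). The Xdh call in GMP-derived lines ended without the no-dox array of B6-3 (adjusted p = 0.0571) and in the fit of these groups alone (0.0523), and those of Prps1 and Prpsap2 at 72 h in that fit (0.133 and 0.124) and without single arrays (without the no-dox array of B6-3 for Prps1, 0.148, and without that of B6-1 for Prpsap2, 0.107).

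Genes of folate carbon and serine metabolism and of pyrimidine synthesis were read in the same way. Gart and Atic use carbon carried by folate. Of 12 measured genes of folate carbon and serine metabolism (15 named), 8 rose with dox in GMP-derived lines (5.75% of all genes called higher). In LT-HSC-derived lines 5 rose at 72 h (3.43% higher) and 0 passed at 48 h (limma, 0.441% called, 4 of the list at an unadjusted p under 0.05). In GMP-derived lines Aldh1l2, a mitochondrial folate dehydrogenase, rose by 1.02 ± 0.15 (adjusted p = 6.31e-05), and Shmt2, which passes carbon from serine to folate, by 0.81 ± 0.13 (adjusted p = 9.65e-05). The serine synthesis enzymes Psat1 and Phgdh rose there by 0.61 ± 0.08 and 0.58 ± 0.13 (adjusted p = 1.21e-05 and 0.00315). At 72 h Aldh1l2 rose by 0.84 ± 0.16 and Psat1 by 0.46 ± 0.08 (adjusted p = 0.00195 and 0.00119), and the Aldh1l2 call ended in the fit of these groups alone (0.0513). Mthfd2, a mitochondrial folate enzyme, rose at 72 h by 0.46 ± 0.14 (adjusted p = 0.0388) and Shmt2 by 0.46 ± 0.13 (adjusted p = 0.0378). Both calls ended under quantile normalization (0.0575 and 0.0657) and in the fit of these groups alone (0.0878 and 0.0736). That of Mthfd2 also ended without the dox array of B6-2 (0.122), B6-3 (0.107) or B6-1 (0.0605) and without the no-dox array of B6-1 (0.201). That of Shmt2 ended without the dox array of B6-2 (0.183) or B6-1 (0.0763) and without the no-dox array of B6-2 (0.0516), B6-3 (0.14) or B6-1 (0.0572). Of 14 pyrimidine synthesis genes, all measured, 4 rose with dox in GMP-derived lines (5.75% of all genes higher) and 0 passed in LT-HSC-derived lines at either time (limma; 7.15% of all genes called at 72 h and 0.441% at 48 h; 2 at 72 h and 0 at 48 h at an unadjusted p under 0.05). They were Ctps, which makes cytidine triphosphate (0.69 ± 0.16, adjusted p = 0.00453), Umps (0.63 ± 0.11, adjusted p = 0.000225), Dhodh (0.48 ± 0.11, adjusted p = 0.00448) and Cad (0.42 ± 0.08, adjusted p = 0.00139), the last 3 being enzymes of the chain to uridine monophosphate. Ctps and Dhodh missed the threshold without the no-dox array of B6-3 (adjusted p = 0.0783 and 0.077), and Ctps in the fit of these groups alone (0.0574).

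Across the 8 group means, Pfas followed Hprt most closely among the members (Pearson r = 0.84), then Ppat (0.71), Gart (0.66), Gmps (0.66), Atic (0.60), Paics (0.46) and Impdh1 (0.24), with Aprt at -0.55. These are descriptions over 8 groups that share lines and dox status, and r does not measure size. The group means of Pfas span 0.33 log2, against 3.57 for Hprt, which is less than the span asked of the genes ranked next. Among 2432 genes whose group means span at least 1 log2, the 5 most like Hprt were Il12a (r = 0.90), Dus4l (0.89), Armcx4 (0.85), Pus7l (0.85) and Iftap (0.84). Il12a, a subunit of interleukin 12, differed with dox by 0.96 log2 at 48 h and 1.33 at 72 h in LT-HSC-derived lines and by 0.42 in GMP-derived lines. All 5 had dox differences of 0.17 to 1.33 log2, below the 3.00 to 3.53 of Hprt.

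Hprt lies on the X chromosome, and the 5 measured protein-coding genes on each side in the RefSeq order were read as a check on its surroundings. They are 1700080O16Rik, Gpc4, Gpc3, Ccdc160 and Phf6 before it and Plac1, Fam122b, Fam122c, Mospd1 and Etd after it. Phf6, a chromatin protein gene and the nearest before Hprt, was alone among the 10 in passing the test: it rose with dox by 0.70 ± 0.10 at 72 h in LT-HSC-derived lines (adjusted p = 0.000128) and by 0.57 ± 0.09 in GMP-derived lines (adjusted p = 0.000185). Its means were 7.37 without dox and 8.07 with it at 72 h, and 7.15 and 7.73 in GMP-derived lines, and its arrays lay between 7.90 and 8.20 in sorted LT-HSC and between 7.60 and 7.72 in sorted GMP. At 48 h in LT-HSC-derived lines it differed by 0.48 ± 0.11 (adjusted p = 0.06), and it passed there under quantile normalization (0.0367), with the dim filter (0.0379) and with the line as a block (0.0466). The other 9 neighbours differed by -0.47 to 0.45 log2 and none passed. Among them 1700080O16Rik, Gpc4, Gpc3, Ccdc160, Plac1, Fam122c and Etd had means below the lowest array median (5.81) in every group. At such dim signals a difference may go unseen, so they say little about the surroundings of Hprt. The brighter Fam122b differed by 0.45 ± 0.14 at 72 h (limma, adjusted p = 0.0585), and Mospd1 by -0.47 ± 0.17 in GMP-derived lines (adjusted p = 0.0747).

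**Figure D5:**
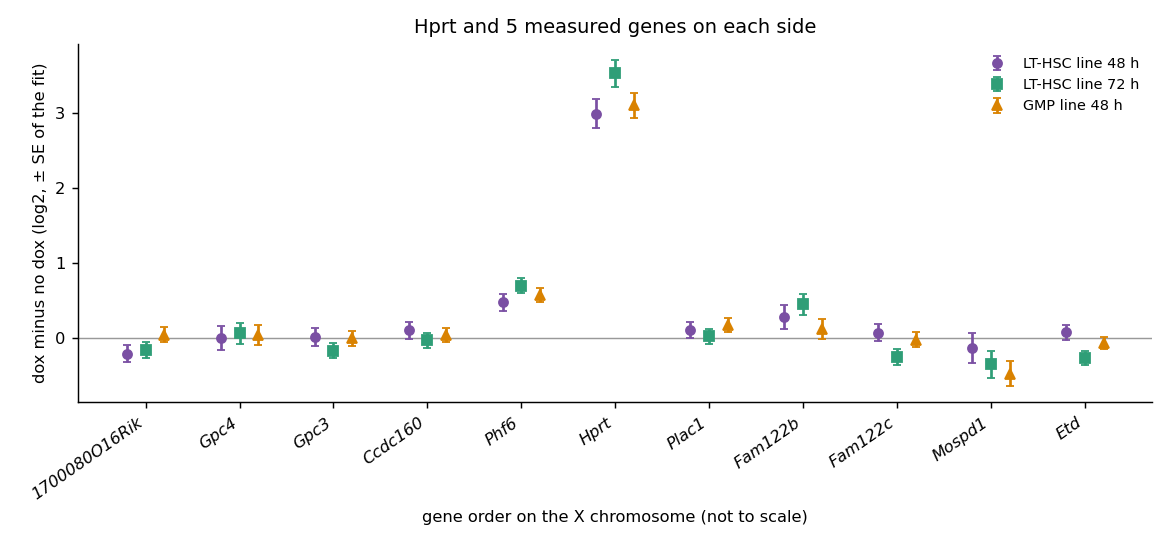
Difference in signal (log2, ± SE of the fit) with dox minus without for Hprt and 5 measured genes on each side, in their order on the X chromosome (not to scale), in LT-HSC-derived lines at 48 h and 72 h and GMP-derived lines at 48 h. Hprt stands at 3.00, 3.53 and 3.11, Phf6 at 0.48, 0.70 and 0.57, and the other 9 genes between -0.47 and 0.45.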

How the data were processed

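Expression was measured on 26 1-colour Affymetrix arrays. The authors deposited log2 signals of 34760 probe sets per array. Limma and R 3.1.1 were used, per the submitters' processing notes, and the sources used here do not name the background correction, summarisation or normalization. That the scale is log2 was read from the values, which ranged from 1.75 to 13.08. Precision is limited by the number of arrays.

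In the annotation used here 21640 probe sets had 1 gene symbol, 1321 had several and 11799 had none. Each of 19937 genes took the brightest of its 1-symbol probe sets. The array's build was not named, so RefSeq GRCm38.p6 served for gene order and promoter sequence. A model with a mean for each of 8 groups was fitted with limma 3.58.1 (R 4.3.3), giving 12 comparisons of group pairs and 1 of dox effects. Tests were 2-sided, with Benjamini-Hochberg adjustment across genes and a threshold of 0.05. Hprt was left untested wherever cultured arrays enter. The procedure was tested on simulated data.

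The members and the gene lists were chosen with earlier results of these data known. Named genes were all members, up to 4 called genes of each list in each dox comparison by size, the 5 genes most like Hprt and 5 neighbours on each side of it. Alternatives were quantile normalization, median centring, a filter on probe sets under the median of all values, the mean of a gene's probe sets, a fit of the compared groups alone, the replicate or line as a block, and leaving out each array. Same-numbered cultured replicates of an origin are the same line and so pair the samples. Their deviations from the group means correlated at -0.06 to 0.47 (median 0.25) in LT-HSC-derived lines and 0.29 to 0.40 in GMP-derived lines. The labels call the replicates biological, but do not tie sorted replicates to separate animals, so their p-values reflect only how much these samples vary, which may be technical variation.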

Additional observations from a re-analysis of the deposited data

Results flagged for a closer look

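Of 27 sets of a member in a group of 4 arrays, 3 held an array far from the others, and chance flags about 1 in 20 such sets. Hprt was 9.84 log2 in sorted LT-HSC replicate 3, where the other 3 arrays gave 9.25 to 9.29. Ppat was 10.10 log2 in sorted GMP replicate 3, where the others gave 9.98 to 9.99. Pfas was 7.02 log2 in the F6-6 array of the GMP-derived lines with dox, where the others gave 6.86 to 6.88.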

How the results depend on the processing

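No called value changed its direction under the alternatives, while values that were not called, or had no test, crossed 0 in 13 of 825 cases with another setting and in 55 of 951 with an array left out. Of the values computed with another setting, 779 kept their side of the threshold, 24 passed newly and 22 were lost; with 1 array left out, these were 891, 7 and 53. The number of members called changed by over 1.5 times under another setting in 4 comparisons. With an array left out it also did so in GMP-derived lines with dox (5, against 2 without the no-dox array of B6-3 and 3 without the dox array of B6-2). Except where a called member was itself filtered out, the cause was not tested. With dox at 72 h in LT-HSC-derived lines, 1 member was called, against 4 with the filter on dim probe sets, 0 in the fit of these groups alone and 3 with the line as a replicate block (2 higher, 1 lower); the block changed the call of no other count by that much. Under quantile normalization the 1 member called there was Aprt, lower (-0.35, adjusted p = 0.0489), in place of Ppat (0.0544). Between origins without dox the count was 3, and 1 in the fit of these groups alone. For LT-HSC-derived lines with dox against sorted LT-HSC it was 2, and 1 under quantile normalization and in the fit of these groups alone. For GMP-derived lines with dox against sorted GMP it was 2, and 1 with median centring. It was also 1 with the dim filter, which removed the called member Impdh1 and left 7 members. With each array left out in turn the counts ranged from 3 to 5 (sorted GMP over LT-HSC), 0 to 1 (dox, LT-HSC-derived, 72 h), 2 to 5 (dox, GMP-derived), 2 to 3 (origin, no dox), 2 to 3 and 6 to 8 (no dox over sorted, LT-HSC and GMP) and 1 to 2 (dox over sorted, both origins), and were 0 in the other comparisons. Over all genes, the 48 h dox comparison of LT-HSC-derived lines called 88, against 295 with the block, 54 in the fit of these groups alone and 10 to 87 with an array left out; with 1 dox array left, that array is assumed to vary like the other groups. At 72 h it called 1425, and 647 in the fit of these groups alone and 859 to 1329 with an array left out. The GMP-derived dox comparison called 2179, and 1224 without the no-dox array of B6-3. Between origins, 421 were called with dox (110 without the LT-HSC-derived dox array of B6-3) and 1355 without (595 in the fit of these groups alone, 743 without the LT-HSC-derived array of B6-1). The difference of dox effects called 46 (21 in the fit of these groups alone, 98 with the block, 8 without the LT-HSC-derived dox array of B6-3). Between 72 h and 48 h, 36 were called without dox (21 with median centring, 0 in the fit of these groups alone, 230 with the block, 0 to 57 with an array left out) and 0 with dox (2 with the block). Sorted replicate numbers correlated at 0.02 to 0.06 and do not pair the sorted arrays; with them as a block 6 members were called there in place of 4. The dim filter left 10459 genes and removed Impdh1, whose signal over background is unknown here.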
